A study of Mus musculus with 13 samples.

Results

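The nucleotide, serine and one-carbon module holds 36 genes for enzymes, and their regulatory subunits, that make purine and pyrimidine nucleotides, serine, folate-bound one-carbon units, S-adenosylmethionine and polyamines. Its members were named by symbol from knowledge of these pathways, and all 36 had a row among the 23336 usable gene symbols of the count tables. They were followed across 13 RNA-seq libraries of mouse splenic B cells. The choice used no measured value directly, but it was made with earlier results of these data known.

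A resting B cell keeps small nucleotide pools. Engagement of the B cell receptor (BCR) starts growth towards division, for which DNA, ribosomal RNA and membrane lipid precursors have to be made. Purine rings are built on phosphoribosyl pyrophosphate (PRPP) with carbon from formyl-tetrahydrofolate and atoms from glycine, glutamine and aspartate, so the serine and folate pathways feed the purine pathway. Methionine adenosyltransferase makes the methyl donor S-adenosylmethionine, which after decarboxylation also supplies the aminopropyl groups of spermidine.

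The B cells came from spleens and were purified by removing CD43-bearing cells. All mice carried hCD20TamCre, a Cre recombinase driven by human CD20 control sequences and switched on by tamoxifen. Control cells were Regnase-1 +/+ and deficient cells Regnase-1 f/f, so deletion of Regnase-1, an RNA-cleaving protein encoded by Zc3h12a, was limited to cells with active Cre. Unstimulated cells were labelled naive and untreated (4 control and 3 deficient libraries). Stimulated cells had received anti-IgM F(ab')2 for 4 h (3 control and 3 deficient libraries). No time in culture is given for unstimulated cells, so effects of culture and of anti-IgM cannot be told apart. A response to stimulation below means the difference between these 2 states. Age and tamoxifen dosing were not given in the sources used here. Labels do not say that each library is a separate animal, so where they are not, the p-values below cover technical variation alone.

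Library totals lay between 21407724 and 33244755 counts, and 3 counts stood for 0.0902 to 0.140 CPM (counts scaled to the size of a library with TMM factors, edgeR's weighted mean of log ratios). Zc3h12a was at 89.2 to 111 CPM in deficient and 121 to 131 CPM in control unstimulated cells (log2 difference -0.32 ± 0.07 SE, adjusted p = 0.106), and at 92.5 to 113 against 147 to 157 CPM in stimulated cells (-0.58 ± 0.08, adjusted p = 7.84e-04). Gene counts also take reads from exons outside a deleted stretch, so this check of the labels is partial. The 10 B cell markers were read in every library, with a summed level of 6059 to 7179 CPM in unstimulated and 3475 to 3879 CPM in stimulated cells. Summed markers of other cells were lower: 26.6 to 102 CPM for T cells, 4.79 to 31.9 for NK cells, 323 to 867 for myeloid cells, 26.5 to 426 for neutrophils, 33.6 to 85.0 for dendritic cells, 207 to 537 for plasma cells, 3.29 to 8.38 for platelets and 154 to 1570 for erythroid cells, with Hba-a1 and Hba-a2 at 0 in every library. The libraries of deficient number 1 stood apart from the others of their groups. Their 4 replicate pairs had a chi-square per gene of 24.4 to 36.1, against 8.22 to 19.2 in all other pairs, and their neutrophil markers summed to 426 and 297 CPM, against 41.1 to 70.6 CPM for deficient numbers 2 and 3. Control libraries spanned 26.5 to 402 CPM. Without both libraries of deficient number 1 the same numbers of members were called in every comparison, and the members' median difference between genotypes was 0.11 in unstimulated and 0.07 in stimulated cells, against 0.04 and 0.03 with them.

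Promoter sequence is shown for members on which the results turn, as RefSeq windows of 250 bases before to 50 bases after the annotated start (GRCm38.p6), printed 5′ to 3′ on the strand of the gene. Windows were found for 33 of 36 members. The first set holds 3 of the members that rose most, Shmt1 (chr11:60811216-60811515, minus strand), Ctps (chr4:120570227-120570526, minus strand) and Mat2a (chr6:72439507-72439806, minus strand).
Shmt1: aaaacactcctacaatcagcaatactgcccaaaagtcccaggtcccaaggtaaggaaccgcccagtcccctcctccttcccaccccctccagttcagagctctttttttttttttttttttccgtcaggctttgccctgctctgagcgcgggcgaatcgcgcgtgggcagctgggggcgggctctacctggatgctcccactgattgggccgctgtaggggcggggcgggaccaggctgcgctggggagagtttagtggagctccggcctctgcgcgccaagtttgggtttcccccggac
Ctps: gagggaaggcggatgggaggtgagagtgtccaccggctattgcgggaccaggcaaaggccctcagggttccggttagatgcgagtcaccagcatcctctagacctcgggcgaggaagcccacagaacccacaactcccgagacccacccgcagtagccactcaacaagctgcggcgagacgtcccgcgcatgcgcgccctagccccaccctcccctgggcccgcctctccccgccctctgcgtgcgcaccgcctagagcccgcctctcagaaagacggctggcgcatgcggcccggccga
Mat2a: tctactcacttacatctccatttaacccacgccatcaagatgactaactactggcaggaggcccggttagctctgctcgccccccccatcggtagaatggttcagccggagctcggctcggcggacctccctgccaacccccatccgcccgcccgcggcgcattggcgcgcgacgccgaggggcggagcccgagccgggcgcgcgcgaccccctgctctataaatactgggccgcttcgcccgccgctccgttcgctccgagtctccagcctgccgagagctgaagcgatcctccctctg

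The second set holds the members that fell in both genotypes, Ctps2 (chrX:162901310-162901609, plus strand), Mat2b (chr11:40692633-40692932, minus strand) and Prpsap1 (chr11:116490297-116490596, minus strand). No window of these 6 has capitals, because neither motif searched is in them. The starts are those of RefSeq. The GENCODE vM21 annotation puts the outer 5′ ends of Shmt1 (60811718), Ctps2 (162901238), Mat2b (40695203) and Prpsap1 (116494202) upstream of these windows. Sequence around those ends was not searched.
Ctps2: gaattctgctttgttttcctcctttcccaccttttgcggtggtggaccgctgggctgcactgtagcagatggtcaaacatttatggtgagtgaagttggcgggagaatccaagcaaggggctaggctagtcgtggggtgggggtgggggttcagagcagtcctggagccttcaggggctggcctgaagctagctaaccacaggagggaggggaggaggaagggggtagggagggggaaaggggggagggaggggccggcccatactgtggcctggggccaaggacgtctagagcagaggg
Mat2b: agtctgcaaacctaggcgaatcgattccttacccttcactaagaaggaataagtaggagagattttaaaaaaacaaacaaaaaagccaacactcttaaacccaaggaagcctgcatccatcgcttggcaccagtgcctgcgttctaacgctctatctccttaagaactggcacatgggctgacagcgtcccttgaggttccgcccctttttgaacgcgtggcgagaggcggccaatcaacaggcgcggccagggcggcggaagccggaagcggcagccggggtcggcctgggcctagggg
Prpsap1: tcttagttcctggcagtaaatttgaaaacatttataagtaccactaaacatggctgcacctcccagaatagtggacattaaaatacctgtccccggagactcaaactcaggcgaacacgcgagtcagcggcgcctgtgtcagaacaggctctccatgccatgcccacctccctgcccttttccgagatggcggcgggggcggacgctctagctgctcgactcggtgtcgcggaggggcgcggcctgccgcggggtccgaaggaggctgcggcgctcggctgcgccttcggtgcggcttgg

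The third set is Ppat (chr5:76951529-76951828, minus strand) and Paics (chr5:76951052-76951351, plus strand), chosen after their values were seen. These genes lie head to head with annotated starts 276 bases apart, and their responses differed in size. Capitals in the Paics window mark CACGTG.
Ppat: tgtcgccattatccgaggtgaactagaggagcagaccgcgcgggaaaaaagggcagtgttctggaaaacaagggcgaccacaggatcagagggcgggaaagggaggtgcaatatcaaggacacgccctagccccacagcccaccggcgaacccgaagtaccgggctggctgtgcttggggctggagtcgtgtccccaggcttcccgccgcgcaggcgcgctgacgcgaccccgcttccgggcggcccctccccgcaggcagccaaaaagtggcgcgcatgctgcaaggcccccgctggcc
Paics: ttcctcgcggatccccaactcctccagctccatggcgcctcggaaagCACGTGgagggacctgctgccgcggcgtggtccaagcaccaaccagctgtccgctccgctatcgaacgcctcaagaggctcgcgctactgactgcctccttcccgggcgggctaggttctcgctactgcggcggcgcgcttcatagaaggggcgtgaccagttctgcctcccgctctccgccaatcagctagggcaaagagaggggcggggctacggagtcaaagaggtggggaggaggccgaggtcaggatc

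The searched motifs were CACGTG, the E-box bound by MYC with MAX, and TGATGNAA, the core of the element bound by ATF4. Both strands were searched, and no member window held both motifs. CACGTG was in 4 of 33 member windows (12.1%), against 8.09% of 27025 genes with a window. Besides Paics these were Atic (chr1:71557132-71557172, plus strand), Impdh2 (chr9:108560309-108560349, plus strand) and Nme1 (chr11:93968267-93968307, minus strand), shown as 41-base stretches with the motif in capitals. TGATGNAA was in 1 of 33 (3.03%, against 4.51% of all genes), the window of Prps1 (chrX:140456417-140456457, plus strand). Member windows had a median GC content of 60.7%, against 52.7% over all genes. A match of letters is a description and does not show that a factor binds there.
Atic: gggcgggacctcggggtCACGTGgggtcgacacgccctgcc
Impdh2: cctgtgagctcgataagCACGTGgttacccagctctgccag
Nme1: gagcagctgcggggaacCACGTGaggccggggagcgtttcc
Prps1: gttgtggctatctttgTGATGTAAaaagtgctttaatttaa

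After 4 h of BCR stimulation most of the module rose, in both genotypes. In control cells 32 of 36 members rose (28.5% of all 13574 genes tested rose) and 3 fell (31.8% of all genes), with only Prps2 not called. In deficient cells the same 32 members rose (28.3% of all genes), the same 3 fell (29.6%), and Prps2 was again not called. Calls were made with edgeR's quasi-likelihood test at a Benjamini-Hochberg adjusted p under 0.05 over all genes tested. The median log2 change of the members was 1.14 in control and 1.15 in deficient cells, against -0.13 and -0.11 over all genes tested. Among the 6817 tested genes with a mean level in the members' range the medians were 0.04 and 0.07.

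A rise of more than 2-fold was called for 23 members in control cells (10.1% of all genes) and 22 in deficient cells (9.78%). A rise of more than 4-fold was called for 5 members in control cells (2.22% of all genes) and 4 in deficient cells (2.08%). The 5 were Srm, Shmt1, Ctps, Mat2a and Psat1, of which Psat1 was below 4-fold in deficient cells. The libraries of the 2 states did not overlap for 35 members in control cells (63.5% of all genes) and 36 in deficient cells (62.0%). A lack of overlap between states, given for single members below, is therefore a trait of most genes. Within libraries of the same genotype and number, 32 members were higher after stimulation in all 6 pairs and 4 were lower in all 6. Those 4 include Prps2, which was not called. The share of all genes that moved the same way in all 6 pairs was not computed. The 36 members together made up 3801 to 4258 CPM in unstimulated libraries and 9094 to 9850 CPM in stimulated ones.

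**Figure D1:**
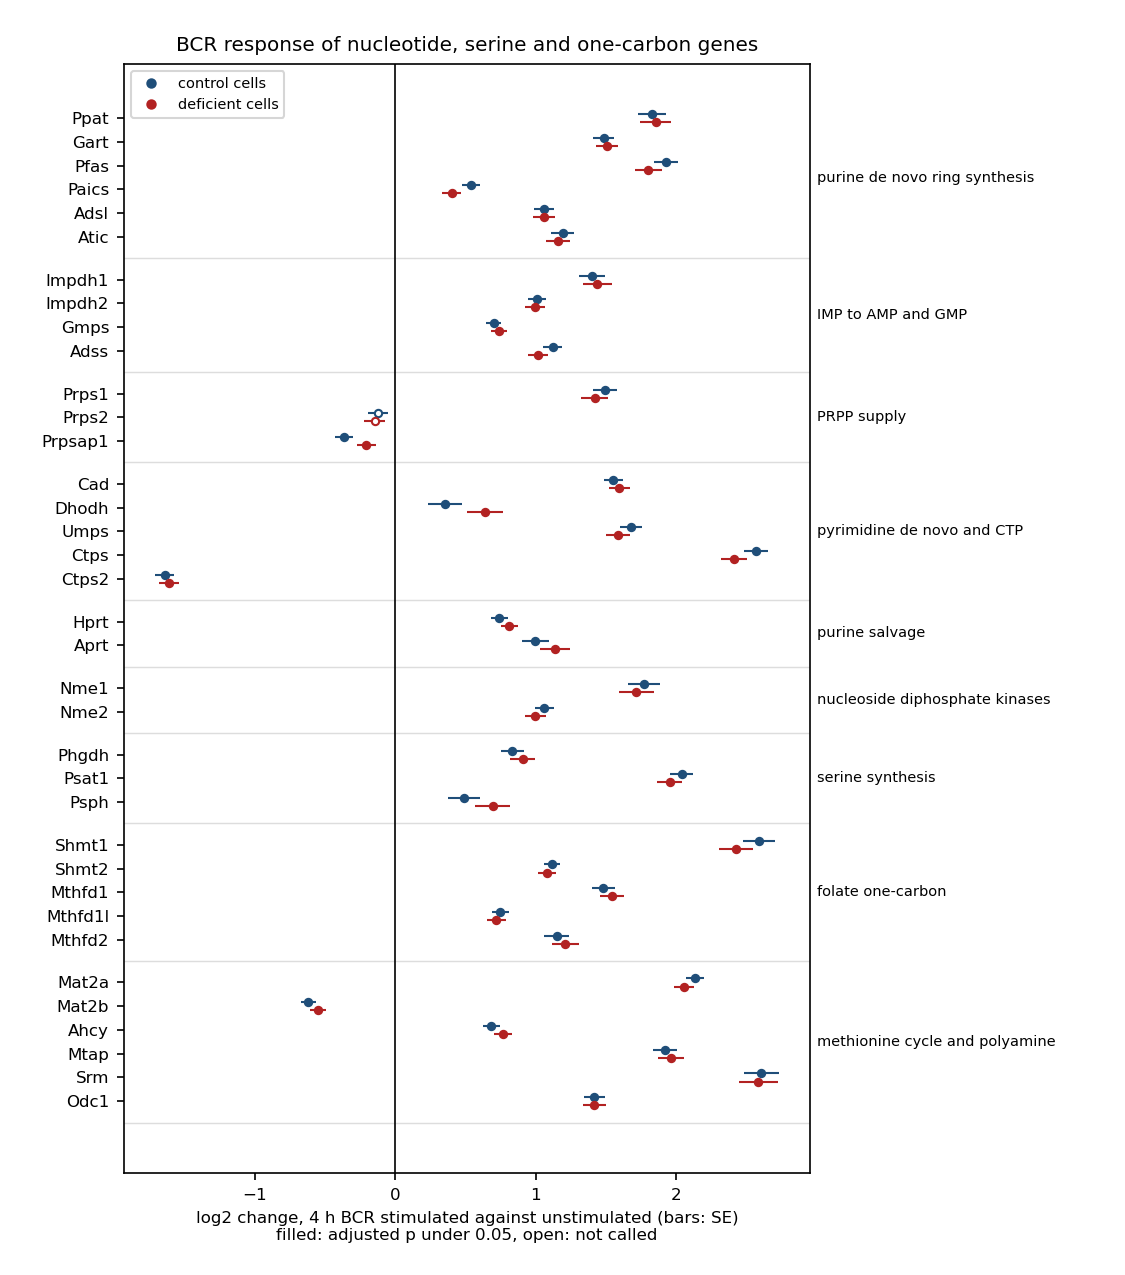
BCR response of each member in control (blue) and deficient (red) cells, as log2 change with its SE, grouped by role; filled points were called. Most points lie right of 0, between 0.35 and 2.60 for the members that rose in control cells, while Ctps2, Mat2b and Prpsap1 lie left of it.

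These are shares of a library, and in bulk RNA fewer cells of a type and less RNA per cell cannot be told apart. Marker levels also moved with stimulation. Of 10 B cell markers 6 fell and 4 rose in control cells, and the sum went from 6290–7058 to 3475–3650 CPM. Of 8 T cell markers 2 rose and none fell (26.6–65.8 to 68.3–93.8 CPM). Of 5 stromal markers 1 fell and none rose (205–223 to 32.7–46.0 CPM). In deficient cells the sums moved likewise, to 3530–3879, 87.4–102 and 54.3–58.8 CPM after stimulation. Of 10 myeloid markers 2 fell in control and 3 in deficient cells, and of 9 neutrophil markers 1 fell in control cells. Of 6 dendritic markers 1 rose in each genotype, and of 5 plasma cell markers 1 rose and 2 fell in control and 1 rose and 1 fell in deficient cells. No NK cell or platelet marker and none of the 6 tested erythroid markers was called with stimulation by edgeR. No B cell, T cell or stromal marker was at 0 in any library, and the part of these shifts in the members' changes was not tested.

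All 6 enzymes of purine ring synthesis rose in both genotypes, by a median log2 change of 1.34 in control and 1.33 in deficient cells. Pfas, which makes formylglycinamidine ribonucleotide, was at 47.8, 40.8, 39.0 and 41.2 CPM in control unstimulated cells and 164, 168 and 150.2 CPM after stimulation. In deficient cells it was at 41.3, 51.8 and 52.3 CPM before and 163, 165 and 178 CPM after. No stimulated library overlapped an unstimulated one, and the rise was 3.81-fold (log2 change 1.93 ± 0.09 SE, adjusted p = 2.68e-11) in control and 3.48-fold in deficient cells (adjusted p = 1.99e-10). Ppat, the amidotransferase of the committed step, went from 50.7 ± 5.05 (SD, n = 4) to 179.9 ± 5.12 CPM (n = 3) in control cells, a log2 change of 1.83 ± 0.10 (adjusted p = 7.59e-10), and showed 1.85 ± 0.11 in deficient cells. Gart, a trifunctional enzyme that uses formyl-tetrahydrofolate, rose 2.80-fold in control and 2.84-fold in deficient cells. Its exons overlap Gm15964 on the opposite strand over 1014 bases, so the level of Gart is uncertain. Atic, which closes the ring, rose 2.28- and 2.23-fold, and Adsl, a lyase that acts both before ring closure and on the way to AMP, rose 2.08-fold in both.

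Paics rose least of the 6. It carries out the carboxylation and the succinocarboxamide step, and went from 112, 125, 107 and 109 to 162, 177 and 155 CPM in control cells and from 131, 121 and 124 to 172, 157 and 168 CPM in deficient cells. The stimulated libraries all lay above the unstimulated ones, but the fold was 1.46 in control and 1.32 in deficient cells (adjusted p = 1.56e-06 and 9.08e-05). The head-to-head neighbour Ppat, whose promoter is printed above, rose 3.55-fold in the same control libraries. On a scale per kilobase of annotated exon, Paics was at 36.1 and Ppat at 11.5 CPM per kb in control unstimulated cells, and at 52.6 and 40.7 after stimulation. Their exons overlap on opposite strands over 272 bases, so some reads cannot be assigned, since the strand setting of the counting was not given in the sources used here.

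The 4 enzymes that turn inosine monophosphate (IMP) into AMP and GMP rose in both genotypes, with median log2 changes of 1.06 and 1.01. Impdh1 and Impdh2 encode isozymes of IMP dehydrogenase, the entry to GMP. Impdh1 was at 65.0, 63.8, 61.7 and 53.8 CPM in control unstimulated and 162, 173 and 148 CPM in control stimulated cells, and at 47.3, 56.4 and 57.6 and then 126, 149 and 162 CPM in deficient cells. The states did not overlap, and the rise was 2.64-fold in control (adjusted p = 4.83e-09) and 2.71-fold in deficient cells (adjusted p = 1.22e-08). Impdh2, the more abundant isozyme per kilobase, rose 2.01- and 2.00-fold. Gmps, the GMP synthetase, rose 1.62- and 1.67-fold. Adss, an adenylosuccinate synthetase of the AMP branch, rose 2.17- and 2.02-fold.

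PRPP supply was split: Prps1 rose, Prpsap1 fell and Prps2 was not called. Prps1, a PRPP synthetase, was at 32.4, 39.8, 29.5 and 33.2 CPM in control unstimulated cells and 103, 93.8 and 87.9 CPM after stimulation, and at 33.5, 35.6 and 32.0 and then 85.8, 89.6 and 94.9 CPM in deficient cells. Stimulated libraries were all higher, by 2.81-fold in control (log2 change 1.49 ± 0.09 SE, adjusted p = 5.23e-10) and 2.67-fold in deficient cells (adjusted p = 3.29e-09). Prps2, its isozyme, was at 41.3, 48.3, 41.5 and 42.9 CPM before and 39.5, 41.6 and 38.8 CPM after stimulation in control cells, which overlap. In deficient cells it was at 52.8, 53.3 and 53.9 before and 47.4, 45.5 and 51.7 CPM after, without overlap. The log2 changes of -0.12 ± 0.07 and -0.15 ± 0.07 missed the threshold (adjusted p = 0.134 and 0.0967).

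Prpsap1, a PRPP synthetase-associated protein without catalytic activity, was at 69.8, 69.8, 64.2 and 62.2 CPM in control unstimulated cells and 51.7, 52.9 and 50.4 CPM after stimulation. In deficient cells it was at 62.4, 69.9 and 66.0 and then 59.1, 57.7 and 55.4 CPM. Stimulated libraries were lower in both genotypes, with log2 changes of -0.36 ± 0.06 (adjusted p = 7.97e-05) and -0.20 ± 0.06 (adjusted p = 0.0135). The fall in deficient cells lost its call without unstimulated library 2 (adjusted p = 0.0725) or without stimulated library 3 (adjusted p = 0.0585).

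The pyrimidine enzymes rose except for Ctps2, with a median log2 change of 1.55 in control and 1.58 in deficient cells. CTP synthase, which aminates UTP to CTP, has 2 isozymes here, and they moved in opposite directions. Ctps was at 32.2, 39.2, 32.1 and 30.9 CPM in control unstimulated cells and 196, 208 and 193 CPM after stimulation, and at 32.6, 38.0 and 41.3 and then 190.1, 203 and 200.3 CPM in deficient cells. Stimulated libraries stood far above all unstimulated ones, by 5.92-fold in control (log2 change 2.56 ± 0.09 SE, adjusted p = 3.04e-12) and 5.31-fold in deficient cells (adjusted p = 1.69e-11).

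Ctps2 was at 125, 119, 112 and 117 CPM in control unstimulated cells and 39.5, 35.3 and 39.1 CPM after stimulation. In deficient cells it went from 103, 111 and 121 to 38.5, 36.0 and 35.3 CPM. It was 3.11-fold lower after stimulation in control (log2 change -1.64 ± 0.07 SE, adjusted p = 1.67e-11) and 3.05-fold lower in deficient cells (adjusted p = 5.22e-11), with no overlap. It was the only member that fell by more than 2-fold, a size reached by 12.4% of all genes in control and 11.7% in deficient cells.

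Cad, the trifunctional enzyme of the first pyrimidine steps, went from 114 ± 5.82 (SD, n = 4) to 333 ± 30.5 CPM (n = 3) in control cells, a 2.93-fold rise, and rose 3.02-fold in deficient cells. Umps, which makes UMP from orotate, rose 3.20- and 2.99-fold. Its exons overlap Gm15829 on the opposite strand over 213 bases. Dhodh, the mitochondrial dehydrogenase between Cad and Umps, had the lowest mean level of all members and moved least of the 5 pyrimidine members. It was at 17.8, 17.2, 18.4 and 13.99 and then 21.1, 22.4 and 20.9 CPM in control cells and at 13.4, 18.1 and 18.3 and then 28.4, 24.3 and 24.7 CPM in deficient cells. The states did not overlap, and the folds were 1.28 (adjusted p = 0.0177) and 1.56 (adjusted p = 4.49e-04). The control call was lost without unstimulated library 4 (adjusted p = 0.0561), without stimulated library 2 (0.0616) and with scaling by library totals alone (0.110).

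Both purine salvage enzymes rose. Aprt, which recycles adenine, was at 39.6, 45.3, 45.1 and 39.8 and then 76.9, 91.9 and 85.3 CPM in control cells and at 37.0, 50.9 and 40.8 and then 94.3, 90.2 and 98.7 CPM in deficient cells. The states did not overlap, and it rose 1.99-fold in control (adjusted p = 1.91e-07) and 2.20-fold in deficient cells (adjusted p = 1.25e-07). Hprt, which recycles hypoxanthine and guanine, rose 1.67- and 1.76-fold.

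The nucleoside diphosphate kinases, which charge diphosphates to triphosphates, also rose. Nme1 was at 34.7, 41.6, 35.0 and 30.3 and then 119.6, 134 and 109 CPM in control cells and at 31.8, 43.7 and 37.3 and then 119, 122 and 129 CPM in deficient cells. All stimulated libraries were higher, by 3.42-fold in control (adjusted p = 5.68e-09) and 3.28-fold in deficient cells (adjusted p = 2.61e-08). Nme2 rose 2.09- and 2.00-fold. The genes are adjacent on chromosome 11, and an annotated readthrough transcript, Gm20390, shares exon sequence with both, so their separate levels are uncertain.

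The 3 enzymes of serine synthesis from 3-phosphoglycerate rose unequally. Psat1, the aminotransferase of the middle step, was at 106, 134, 118 and 119 CPM in control unstimulated cells and 489, 502 and 476 CPM after stimulation. In deficient cells it was at 143, 144 and 118 and then 495, 525 and 549 CPM. No states overlapped, and it rose 4.11-fold in control (log2 change 2.04 ± 0.08 SE, adjusted p = 1.06e-11) and 3.87-fold in deficient cells (adjusted p = 6.01e-11). Phgdh, the dehydrogenase of the first step, went from 243 ± 22.2 (SD, n = 4) to 432 ± 26.5 CPM (n = 3) in control cells (1.78-fold) and rose 1.87-fold in deficient cells. Psph, the phosphatase of the last step, rose 1.40-fold in control (adjusted p = 0.00179) and 1.62-fold in deficient cells (adjusted p = 1.82e-04). Per kilobase the order in control unstimulated cells was Phgdh (97.6 CPM per kb), Psat1 (28.0) and Psph (3.93), and after stimulation 174, 115 and 5.52. Exons of Psph overlap Cct6a on the opposite strand over 452 bases, so its level is uncertain.

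All 5 folate enzymes rose. Shmt1, the cytosolic serine hydroxymethyltransferase, was at 12.4, 16.0, 13.5 and 14.5 CPM in control unstimulated cells and 86.8, 84.7 and 82.6 CPM after stimulation. In deficient cells it was at 12.8, 17.9 and 14.6 and then 71.0, 81.9 and 89.9 CPM. It rose 6.01-fold in control (log2 change 2.59 ± 0.11 SE, adjusted p = 3.26e-11) and 5.36-fold in deficient cells (adjusted p = 2.28e-10), with no overlap of states. Shmt2, the mitochondrial isozyme, rose 2.16- and 2.12-fold from 534 ± 27.1 CPM (SD, n = 4) in control cells. Despite the smaller fold Shmt2 remained far more abundant per kilobase, at 372 against 21.8 CPM per kb in control stimulated cells. Shmt1 exons overlap Smcr8 on the opposite strand over 184 bases.

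Among the folate interconversion enzymes, cytosolic Mthfd1, a trifunctional enzyme, rose 2.79-fold in control and 2.91-fold in deficient cells. The mitochondrial dehydrogenase and cyclohydrolase Mthfd2 rose 2.22- and 2.31-fold. Mthfd1l, the mitochondrial formyl-tetrahydrofolate synthetase, rose 1.68- and 1.65-fold, the smallest folds of the 5.

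Of the methionine and polyamine genes 5 of 6 rose, with median log2 changes over the 6 of 1.67 and 1.69. Srm, spermidine synthase, showed the largest log2 change of all members, within its SE of Shmt1 in control cells. It was at 40.2, 53.9, 46.4 and 46.8 CPM in control unstimulated cells and 276, 313 and 264 CPM after stimulation, and at 37.0, 52.0 and 52.0 and then 261, 279 and 303 CPM in deficient cells. Stimulated libraries were all far higher, by 6.08-fold in control (log2 change 2.60 ± 0.13 SE, adjusted p = 1.37e-09) and 5.99-fold in deficient cells (adjusted p = 5.05e-09). Across the 6 numbered pairs of libraries its log2 change ran from 2.42 to 2.82. Odc1, ornithine decarboxylase, makes the putrescine that Srm uses, and went from 533 ± 49.6 (SD, n = 4) to 1422 ± 79.3 CPM (n = 3) in control cells. This was a 2.67-fold rise, and the fold was 2.67 in deficient cells. Mtap, which acts on the by-product of Srm in the recovery of adenine and methionine, rose 3.78- and 3.89-fold.

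The subunits of methionine adenosyltransferase moved in opposite directions. Mat2a, the catalytic subunit, was at 207, 239, 212 and 215 CPM in control unstimulated cells and 972, 982 and 914 CPM after stimulation, and at 199.8, 211 and 211 and then 801, 865 and 913 CPM in deficient cells. It rose 4.38-fold in control (log2 change 2.13 ± 0.06 SE, adjusted p = 2.12e-12) and 4.15-fold in deficient cells (adjusted p = 7.52e-12), with no overlap. Mat2b, the regulatory subunit, was at 95.1, 92.4, 87.0 and 94.7 and then 59.9, 61.8 and 58.9 CPM in control cells and at 86.4, 95.9 and 92.6 and then 62.0, 62.6 and 63.3 CPM in deficient cells. It was 1.53-fold lower in control (adjusted p = 5.98e-08) and 1.46-fold lower in deficient cells (adjusted p = 5.21e-07), again with no overlap. Ahcy, which clears S-adenosylhomocysteine, rose 1.61- and 1.70-fold. Mat2a exons overlap the noncoding RNA Particl on the opposite strand over 508 bases, so its level is uncertain.

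**Figure D2:**
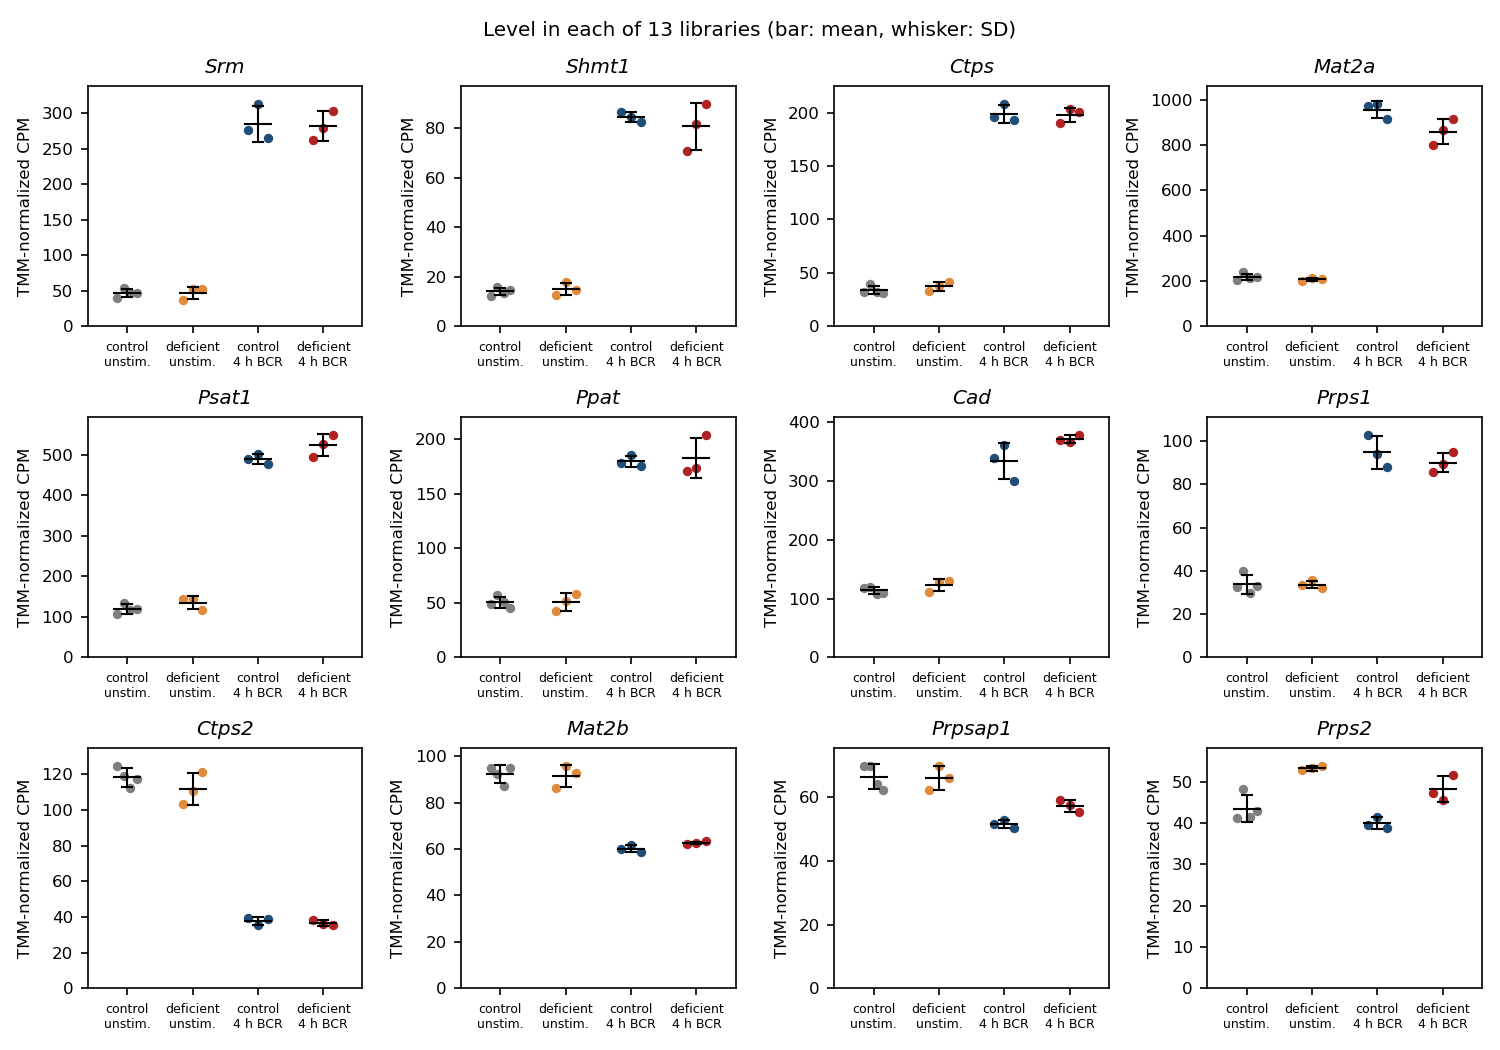
TMM-normalized CPM of 12 members in each of the 13 libraries (points) with the group mean (bar) and SD (whisker). Srm, Shmt1, Ctps, Mat2a, Psat1, Ppat, Cad and Prps1 are higher in all stimulated libraries, Ctps2, Mat2b and Prpsap1 are lower, and Prps2 was not called between states.

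Ratios between related members within a library do not depend on how libraries are scaled. Per kilobase they do depend on the annotated lengths, which cover exons of all isoforms of a gene. Ctps stood at 0.405 ± 0.0460 times the level of Ctps2 per kilobase in control unstimulated cells (SD, n = 4) and at 7.49 ± 0.788 times after stimulation (n = 3). In deficient cells the ratio went from 0.474 ± 0.0219 to 7.71 ± 0.589, so the more abundant isozyme per kilobase changed in both genotypes. Prps1 to Prps2 went from 1.504 ± 0.0910 to 4.62 ± 0.382 in control and from 1.23 ± 0.0727 to 3.64 ± 0.168 in deficient cells. Mat2a to Mat2b went from 2.64 ± 0.201 to 17.7 ± 0.393 in control and from 2.52 ± 0.0604 to 15.3 ± 0.855 in deficient cells.

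In the other pairs the order of the isozymes held while the ratio moved. Shmt2 stood 47.6 ± 3.75 times above Shmt1 per kilobase in control unstimulated cells and 17.04 ± 0.355 times after stimulation. Nme2 stood 9.39 ± 0.477 and then 5.73 ± 0.359 times above Nme1, and Impdh2 stood 3.13 ± 0.262 and then 2.38 ± 0.127 times above Impdh1 in control cells. Part of the ratio of Nme2 to Nme1 comes from their annotated lengths of 1171 and 3342 bases. Without length, Nme2 was at 116 and Nme1 at 35.4 CPM in control unstimulated cells. With genotypes combined, the shift of the log2 ratio after stimulation was 4.12 for Ctps to Ctps2, 2.67 for Mat2a to Mat2b, 1.59 for Prps1 to Prps2, 1.41 for Shmt1 to Shmt2, 0.72 for Nme1 to Nme2 and 0.41 for Impdh1 to Impdh2. Within each genotype the log2 ratio of every stimulated library lay above that of every unstimulated library in all 6 pairs. The pairs were chosen with the members' responses known, so the shifts are a description without a test.

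**Figure D3:**
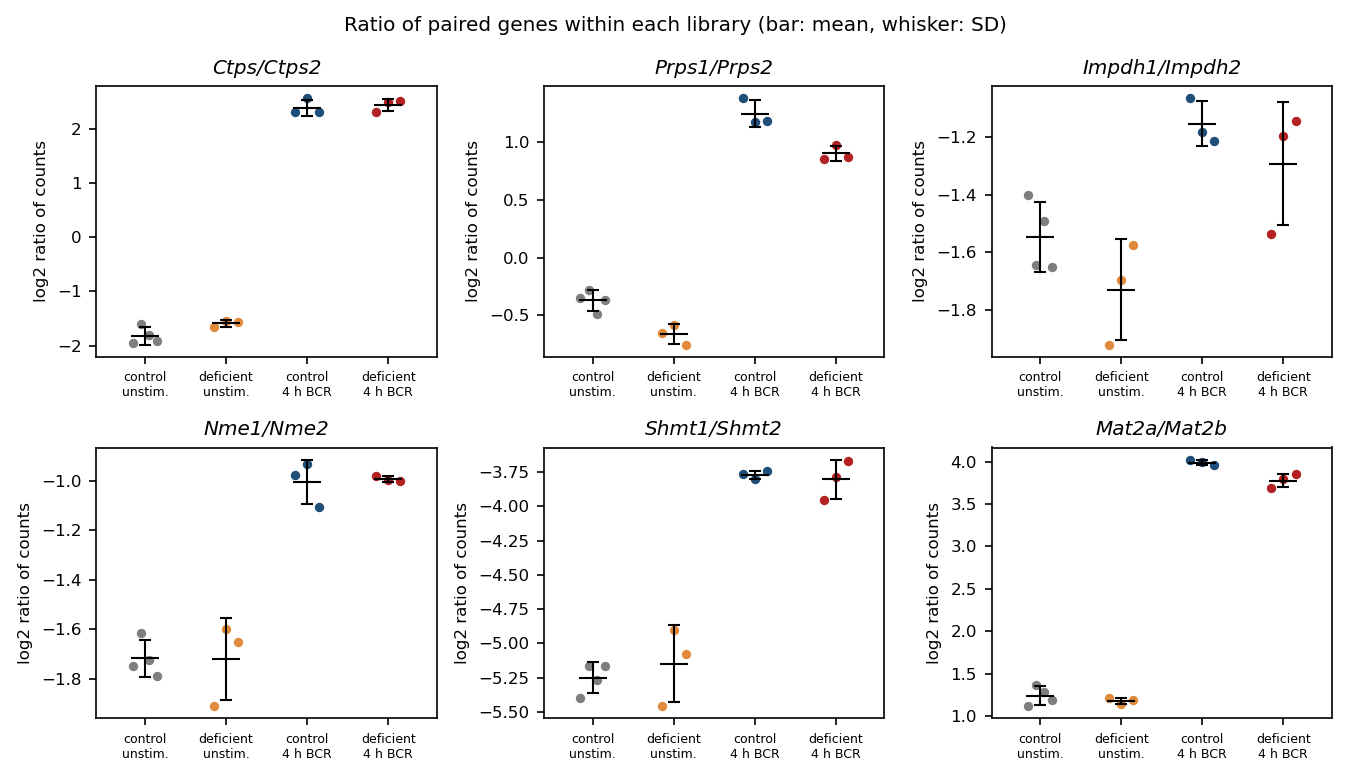
log2 ratio of counts of 6 pairs of related members within each library (points), with the group mean (bar) and SD (whisker), not corrected for length. The ratio is higher in stimulated libraries for each pair, with the largest shift for Ctps to Ctps2 and the smallest for Impdh1 to Impdh2.

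Per kilobase of annotated exon, counted over all isoforms of a gene, the members spanned a wide range. In control unstimulated cells Shmt2 (172 CPM per kb) and Odc1 (156) led, followed by Nme2 (99.0) and Phgdh (97.6), which differed by less than their spread. Dhodh (2.66), Shmt1 (3.63) and Psph (3.93) were lowest. After stimulation Odc1 (417) stood above Shmt2 (372) and Mat2a (213), while Dhodh (3.40) and Psph (5.52) were lowest. All 36 members passed the filter on low counts, and the fewest counts of a member in any library were 322, for Shmt1.

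Other genes of these pathways moved in both directions. Of 107 further genes listed by pathway, 105 had a row and 86 were tested. In control cells 29 of the 86 rose (28.5% of all genes), 19 fell (31.8%) and 38 were not called, with a median log2 change of -0.03. In deficient cells the counts were likewise 29 (28.3% of all genes), 19 (29.6%) and 38, with a median of 0.05. The 4 with the smallest p in control cells all rose. Slc19a1, the reduced folate carrier, went from 24.4 ± 4.01 (SD, n = 4) to 141 ± 6.87 CPM (n = 3), a log2 change of 2.54 ± 0.12 SE in control and 2.36 ± 0.13 in deficient cells. Gcsh, the lipoyl carrier of the glycine cleavage system, showed 2.17 ± 0.12 and 1.95 ± 0.13. Ahcyl2, a protein related to Ahcy, showed 1.91 ± 0.07 and 1.81 ± 0.08. Mtrr, which reactivates methionine synthase, showed 1.54 ± 0.09 and 1.54 ± 0.09. Adjusted p-values of the 4 lay between 5.99e-12 and 3.36e-10 in control cells.

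Of the 13 genes of deoxynucleotide synthesis 3 rose (28.5% of all genes), 6 fell (31.8%) and 4 were not called in control cells. Their median log2 change was -0.62. Genes of this list are named after their values were seen. Dctd, a dCMP deaminase (2.44 ± 0.19 SE), Tk1, the cytosolic thymidine kinase (0.63 ± 0.21), and Dtymk, the thymidylate kinase (0.40 ± 0.08), rose. Among those that fell were Dck, deoxycytidine kinase (-1.39 ± 0.19), Tk2, the mitochondrial thymidine kinase (-1.10 ± 0.10), and Samhd1, a dNTP hydrolase (-0.84 ± 0.12). Those not called included Rrm1 (-0.12 ± 0.24, adjusted p = 0.685) and Rrm2 (-0.78 ± 0.67, 0.352), the main reductase subunits, Tyms, thymidylate synthase (-0.25 ± 0.38, 0.594), and Dut, the dUTPase (0.10 ± 0.10, 0.411). Rrm2 varied widely between libraries of a group, at 36.0, 62.3, 30.1 and 67.0 CPM in control unstimulated and 22.8, 44.1 and 18.8 CPM in control stimulated cells. In deficient cells 2 of the 13 rose (28.3% of all genes), 6 fell (29.6%) and 5 were not called.

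The remaining lists were mixed. Over all genes 28.5% rose and 31.8% fell in control cells, and 28.3% rose and 29.6% fell in deficient cells. Of 19 tested folate and glycine genes 8 rose and 2 fell in control cells, of 37 salvage, kinase and breakdown genes 7 rose and 8 fell, and of 17 methionine, transsulfuration and polyamine genes 11 rose and 3 fell. In deficient cells the counts were 8 and 2, 8 and 9, and 11 and 2. With edgeR 0 of the 86 were called between genotypes in unstimulated cells (0.324% of all genes), in stimulated cells (2.01%) or in the difference of responses (0.00737%). At an unadjusted p under 0.05 there were 6 (8.64% of all genes), 10 (12.0%) and 4 (3.76%).

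With TMM factors and all libraries, no member passed the threshold between deficient and control cells in edgeR. In unstimulated cells Prps2 was called with upper-quartile factors, with library totals alone, without control library 2 and by DESeq2. In stimulated cells Prps2 was called with upper-quartile factors and library totals alone, and Mthfd1 with library totals alone and with only the groups compared. In unstimulated cells edgeR's quasi-likelihood test so fitted called 0 of 36 members (0.324% of all genes were called), with 5 members at an unadjusted p under 0.05 (8.64% of all genes). DESeq2 called 1 of the 36, Prps2, while of 18866 genes it called 66 higher and 96 lower. The limma fit on the deposited log2 values called 0 of the 36, and of 12301 genes 21 higher and 22 lower. In stimulated cells edgeR called 0 of 36 (2.01% of all genes), with 6 members at an unadjusted p under 0.05 (12.0% of all genes). DESeq2 and limma each called 0 members there. DESeq2 called 165 of 18866 genes higher and 356 lower, and limma 104 of 12301 higher and 214 lower. The median log2 difference of the members, deficient minus control, was 0.04 in unstimulated and 0.03 in stimulated cells, against -0.02 and 0.00 over all genes tested. These medians moved by over 1.5 times with single libraries. In unstimulated cells omission of deficient library 1 gave a median of 0.11, of deficient library 2 -0.02, of control library 2 0.08 and of control library 4 0.01. In stimulated cells it was 0.07 without control library 2 or deficient library 1, 0.05 without deficient library 2 and 0.01 without control library 3 or deficient library 3. The SE of a member's difference ran from 0.05 to 0.13, with a median of 0.08 in each state, and differences as large as 0.29 (Prps2, unstimulated) and 0.33 (Psph, stimulated) were not called.

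Prps2 had the smallest p of the members in both states. It was at 52.8, 53.3 and 53.9 CPM in deficient unstimulated cells, against 41.3, 48.3, 41.5 and 42.9 CPM in control unstimulated cells. After stimulation it was at 47.4, 45.5 and 51.7 CPM in deficient and 39.5, 41.6 and 38.8 CPM in control cells. Every deficient library lay above every control library of the same state. On the log2 scale deficient exceeded control cells by 0.29 ± 0.07 (SE) in unstimulated (adjusted p = 0.106) and 0.27 ± 0.07 in stimulated cells (adjusted p = 0.0744), so neither passed the threshold. DESeq2 gave an adjusted p of 0.00718 in unstimulated and 0.0580 in stimulated cells, and without control unstimulated library 2 edgeR gave 0.0414 in unstimulated cells. The difference between genotypes in its response to stimulation was -0.02 ± 0.10 (adjusted p = 0.9998).

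The other members with the smallest p did not pass the threshold in this fit. In unstimulated cells Mthfd1 differed by 0.20 ± 0.08 on the log2 scale (adjusted p = 0.485), Paics by 0.15 ± 0.06 (0.530) and Pfas by 0.20 ± 0.09 (0.535). The difference of Pfas was 0.30 without deficient library 1. In stimulated cells Mthfd1 was at 196, 182 and 194 CPM in deficient and 157, 168 and 151 CPM in control cells, a log2 difference of 0.26 ± 0.09 (adjusted p = 0.177). Psph was at 30.1, 28.1 and 32.2 and 23.1, 26.0 and 22.6 CPM (0.33 ± 0.13, adjusted p = 0.259). Prpsap1 was at 59.1, 57.7 and 55.4 and 51.7, 52.9 and 50.4 CPM (0.15 ± 0.07, adjusted p = 0.361). In all 3 the deficient libraries lay above the control libraries. Over the module, groups did not overlap for 1 member in unstimulated cells (8.72% of all genes) and for 10 in stimulated cells (17.8% of all genes), of which 9 were higher in deficient cells (7.8% of all genes) and Mat2a was lower.

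Marker levels beside this comparison were wide within groups. Erythroid markers summed to 245–1570 CPM in deficient and 803–950 CPM in control unstimulated libraries, and stromal markers to 54.3–58.8 CPM in deficient and 32.7–46.0 CPM in control stimulated libraries, with 1 of 5 stromal markers called higher and 0 of 6 tested erythroid markers called. Dendritic markers summed to 40.4–68.5 CPM in deficient and 71.5–85.0 CPM in control stimulated libraries, with 1 of 6 called lower in each state. In stimulated cells 1 of 10 B cell and 1 of 5 plasma cell markers were also called lower. The part of these levels in the members' differences was not tested.

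The response to stimulation was not called as different between genotypes for any member. In the difference of responses edgeR called 0 of 36 (0.00737% of all genes), with 0 at an unadjusted p under 0.05 (3.76% of all genes). DESeq2 and limma each called 0 members. Of all genes, DESeq2 called 23 of 18866 higher and 15 lower, and limma 1 of 12301 higher and 0 lower. These fits did not use the pairing of states by library number. With that pairing as a block edgeR again called 0 of 36, while 48 of 13574 genes were called higher and 20 lower. Without pairing, the members' median difference of log2 changes, deficient minus control, was 0.00, and their values ran from -0.16 (Shmt1) to 0.29 (Dhodh). The 4 with the smallest p were Prpsap1 (0.16 ± 0.09 SE), Dhodh (0.29 ± 0.18), Paics (-0.14 ± 0.09) and Ctps (-0.15 ± 0.12), each with an adjusted p of 0.9998 from edgeR. The value of Dhodh was 0.15 without deficient unstimulated library 1 and 0.09 without both libraries of deficient number 1. That of Paics was -0.08 without control stimulated library 2. That of Ctps was -0.08 without deficient unstimulated library 3, and -0.24 without deficient unstimulated library 1 or control unstimulated library 2. The members' median was 0.04 without control stimulated library 2 and -0.04 without deficient unstimulated library 1, control unstimulated library 2 or deficient stimulated library 3. The SE of a member's difference of responses had a median of 0.11, and differences up to 0.29 (Dhodh) were not called.

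**Figure D4:**
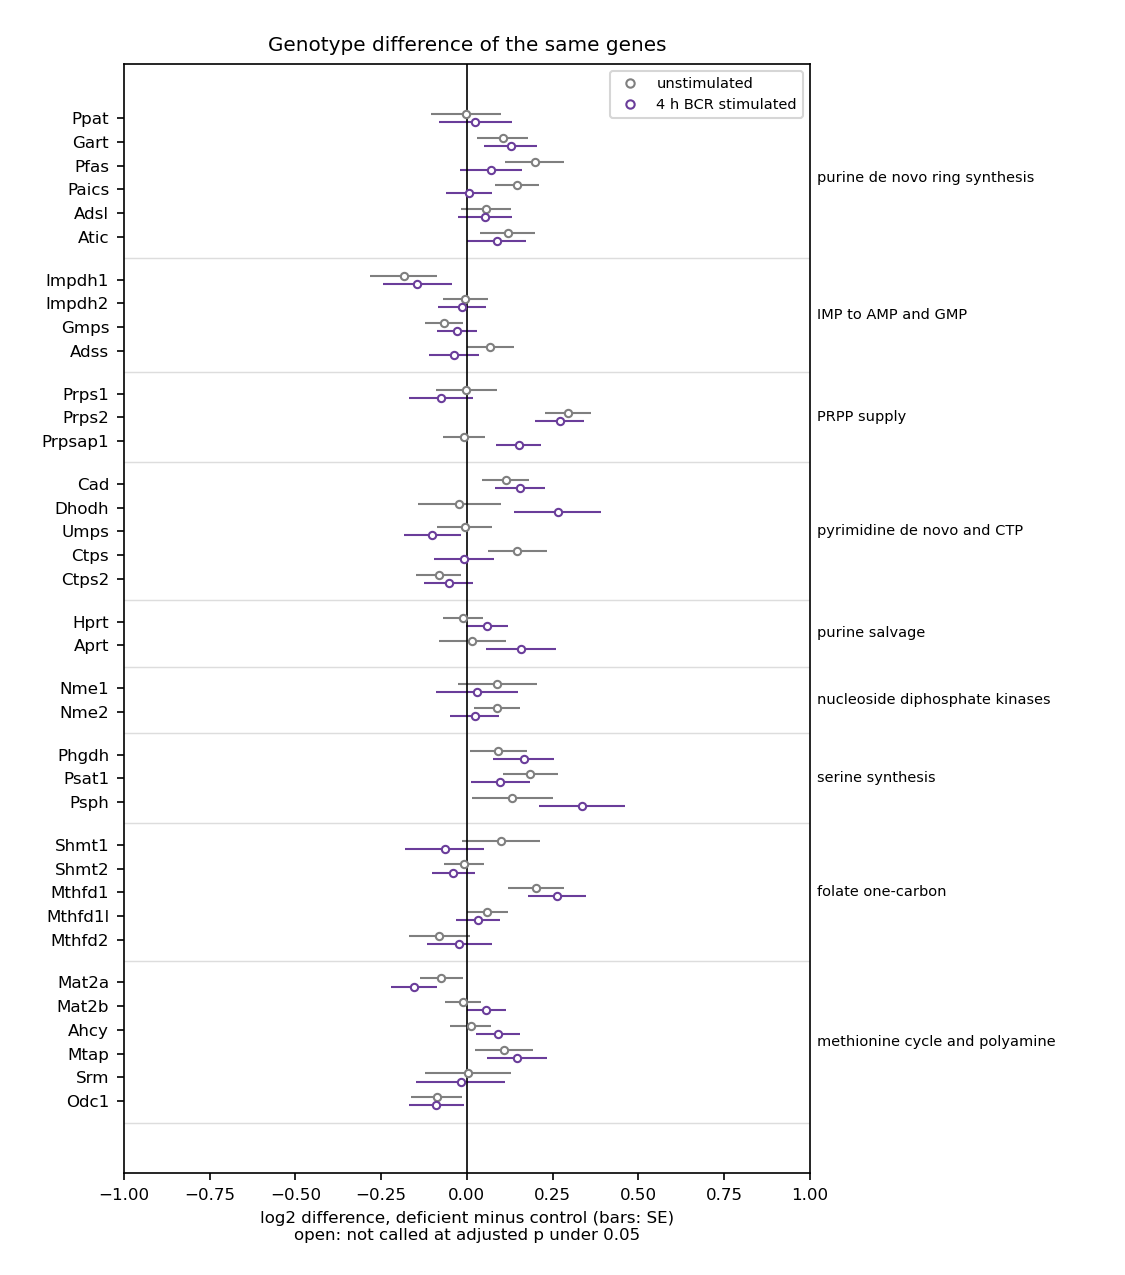
log2 difference between deficient and control cells for each member in unstimulated (grey) and stimulated (purple) cells, with its SE; open points were not called. All points lie between -0.18 and 0.33, and Prps2 is the member farthest right of 0 in unstimulated cells.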

How the data were processed

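RNA-seq was analysed in 13 libraries of mouse splenic B cells. Raw read counts by gene symbol were deposited by the authors, 1 table a library. Per the submitters' processing notes, TopHat, HTSeq and the mm10 build were used. The authors also deposited log2 values per library, for which the same notes name DESeq2. Tool versions, the annotation, the strand setting, the treatment of multi-mapping reads and the exact log2 transformation are not given in the sources used here, so reads of overlapping or near-identical genes may be split or lost. Of 23337 symbols, 1 with a missing cell was left out, and 18872 had reads. Replicates differed by more than sampling noise (chi-square per gene of 8.22 to 36.1 over 15 pairs, the 4 highest all with deficient number 1), and each was counted as a sample.

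The main test was edgeR 4.0.16 in R 4.3.3, with filterByExpr (minimum count 10), TMM factors and a robust quasi-likelihood fit that gave each of the 4 groups its mean over all 13 libraries. It covered 13574 genes with 9 residual degrees of freedom. The common biological coefficient of variation was 0.175. The adjusted p is Benjamini-Hochberg over all genes tested, and genes were called under 0.05. The SE was derived from the log2 change and its F statistic. The script was tested on simulated counts. Levels per kilobase use the summed exon length of GENCODE vM21 genes (mm10), whose names matched 89.7% of symbols. This length covers exons of all isoforms and can exceed that of a single transcript, so orders and ratios per kilobase between genes are approximate. Promoter windows came from a RefSeq table. The 3-count floor covers counting error only, while SD and SE include variation between libraries.

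Library numbers were checked for pairing. Same-numbered libraries of both states deviated together within each genotype (over 8655 genes, r was 0.71, 0.60 and 0.57 for the control numbers and 0.80, 0.75 and 0.56 for the deficient numbers), so the numbers pair the states. Across genotypes every same-number correlation was below 0, so they do not pair genotypes. The main test did not use the pairing of states.

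The members, role groups, further pathway genes and marker lists were chosen with earlier results of these data known. Values of every library are given for the member with the largest fold in each role group and for members that fell or were not called. For comparisons of genotypes the 4 members with the smallest p are given where fewer than 4 were called, and for further pathway genes the 4 with the smallest p in control cells. Values given beyond this rule (Ppat, Paics, Mat2a, Dhodh and the deoxynucleotide genes) were chosen after they were seen. The alternatives were other scalings, filters, a minimum fold, fewer samples, the replicate block, DESeq2 1.42.0, limma 3.58.1 on the authors' log2 values, and omission of each library in turn and of both libraries of deficient number 1.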

Additional observations from a re-analysis of the deposited data

Results flagged for a closer look

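In the group of 4 control unstimulated libraries, 6 of the 36 members had a library whose gap to its nearest neighbour took up more of the group's range than Dixon's critical value at 95% allows. Chance picks out about 1 in 20 such groups. The groups of 3 were not checked. Library 2 was the highest for 4 members. Impdh2 was at 199 CPM there, against 169 to 173 in the other libraries, and Ctps was at 39.2 against 30.9 to 32.2 CPM. Shmt2 was at 575 CPM there, against 519 to 523, and Mthfd1 was at 67.1 against 52.3 to 54.3 CPM. Hprt was lowest in library 3, at 61.0 CPM against 65.5 to 66.4. Odc1 was lowest in library 1, at 459 CPM against 552 to 567. All of these values lie on the unstimulated side of their gene's range, and without each of these libraries the 6 members kept their calls in the control response.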

How the results depend on the processing

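All 36 members were followed for both responses to stimulation, and only the 4 members named in each comparison of genotypes or of responses. Those 4 had the smallest p in the main fit, and members with differences nearer to no change were not followed. None of the followed members reversed direction. Of 1492 values for them, 1463 kept their direction and their side of the threshold, 16 lost a call and 13 gained one. The minimum-fold setting keeps the main log2 changes, so it could not reverse a direction. With a minimum fold of 1.5 the test called 1 member lower (Ctps2) instead of 3 in each genotype, and 28 higher in control and 29 in deficient cells instead of 32 (Paics, Dhodh and Psph lost their call in both, Ahcy in control cells). Of 13574 genes that test called 1816 higher and 1953 lower in control cells, and 1738 and 1751 in deficient cells. Among comparisons of genotypes in unstimulated cells, upper-quartile factors, library totals alone and DESeq2 each called 1 member higher, Prps2, and leaving out a library gave 0 to 1, with 1 (Prps2) without control unstimulated library 2. Upper-quartile factors called 36 of 13574 genes higher and library totals alone 43. DESeq2 called 66 of 18866 higher, and the fit without that library 18 of 13490. In stimulated cells upper-quartile factors called 1 member higher (Prps2), library totals alone called 2 (Prps2 and Mthfd1), and only the groups compared called 1 (Mthfd1). Genes called higher in these fits were 146 of 13574, 220 of 13574 and 80 of 12573. The cause of these changes in calls was not tested. The replicate block within genotype, with 4 residual degrees of freedom, called 35 members in each response and 0 in their difference. Of 13574 genes it called 3991 higher and 4864 lower in control cells, and 4181 and 4719 in deficient cells. In the difference it called 48 genes higher and 20 lower. For comparisons of genotypes the block was library number across genotypes, although these numbers do not pair genotypes. That block called 0 members in each state, and neither block changed a call of a member. Of 13574 genes the block across genotypes called 14 higher and 23 lower in unstimulated cells, and 99 and 174 in stimulated cells. With the block across genotypes edgeR gave Prps2 an adjusted p of 0.235 in unstimulated and 0.123 in stimulated cells. Prps2 was called lower after stimulation with upper-quartile factors or library totals alone in both genotypes, and without deficient stimulated library 3 (adjusted p = 0.0457, edgeR). Scaling by library totals alone moved the median of all genes by -0.147 in control and -0.154 in deficient cells, and the share of higher among called genes from 47.3% to 37.4% and from 48.9% to 38.3%. Relative to the median of all genes, the members' median log2 change stayed between 1.20 and 1.31 in control and between 1.17 and 1.31 in deficient cells.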
